A study of Mus musculus with 6 samples.

Results

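Acyl-CoA thioesterases (ACOTs) cut the thioester bond of an acyl-CoA and release a free fatty acid and coenzyme A. The 10 Acot genes described here (Acot1, Acot2, Acot3, Acot4, Acot7, Acot8, Acot9, Acot11, Acot12 and Acot13) were found by symbol among the 19928 genes of the authors' expression table, and all 10 had a row. The family was selected because Acot4 stood among the larger FPKM differences between the 2 groups of these same samples, so that contrast is given for the members as a description, with errors but no p-value.

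RNA from adipose tissue of KM mice, an outbred Chinese stock, was sequenced in 6 samples. The 3 control samples carry the diet label control, and the 3 treated samples came from mice whose feed was supplemented with RAS (radix Angelica sinensis, a root used as a Chinese herbal drug) at 10.00 g/kg body weight. The series title places the study in mice with obesity induced by a high-fat diet, and no genetic modification is labelled in either group. No source used here gives the fat depot, sex, age or hour of collection, or says whether a sample was 1 animal or a pool, so every p-value measures the spread between these samples, which may be technical.

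The thioesterases fall into 2 unrelated protein types that do the same chemistry. Type I enzymes (Acot1 to Acot6) have an alpha/beta-hydrolase fold and lie side by side in the mouse genome, while type II enzymes (Acot7 to Acot13) have a hot-dog fold and are scattered over several chromosomes. Each compartment of the cell has its own: Acot1 is cytosolic, Acot2 and Acot9 mitochondrial, and Acot3, Acot4 and Acot8 peroxisomal. By setting the balance between acyl-CoA and free fatty acid they bear on whether fatty acids are oxidised, stored or used as ligands, and type I members are textbook targets of the fatty acid receptor PPAR alpha.

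Acot4, Acot1 and Acot2 are shown by the promoter stretches below because these neighbours had the larger differences among the cluster members, and the stretches do not look alike. Each runs from 250 bases before to 50 bases after the annotated start, on the plus strand of chromosome 12, from the RefSeq promoter table of GRCm38.p6. The positions are chr12:84038129-84038428 for Acot4, chr12:84009252-84009551 for Acot1 and chr12:83987611-83987910 for Acot2. Capitals mark 2 kinds of motif searched on both strands: the E-box CACGTG bound by clock activators, and the PPAR response element layout DR1 (2 copies of the nuclear receptor half-site AGGTCA, or TGACCT on the other strand, with 1 base between them and at most 2 mismatches in the 12 fixed bases).
Acot4: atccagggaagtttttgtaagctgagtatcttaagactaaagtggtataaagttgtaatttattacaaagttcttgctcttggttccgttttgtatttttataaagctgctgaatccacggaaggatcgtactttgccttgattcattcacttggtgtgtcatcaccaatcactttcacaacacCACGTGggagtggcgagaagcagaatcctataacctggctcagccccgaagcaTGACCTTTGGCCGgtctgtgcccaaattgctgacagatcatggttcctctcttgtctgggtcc
Acot1: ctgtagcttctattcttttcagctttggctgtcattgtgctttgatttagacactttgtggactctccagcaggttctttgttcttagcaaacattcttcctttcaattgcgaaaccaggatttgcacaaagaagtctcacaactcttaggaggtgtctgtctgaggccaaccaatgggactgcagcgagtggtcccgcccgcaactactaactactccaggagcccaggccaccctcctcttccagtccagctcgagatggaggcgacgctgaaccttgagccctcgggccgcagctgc
Acot2: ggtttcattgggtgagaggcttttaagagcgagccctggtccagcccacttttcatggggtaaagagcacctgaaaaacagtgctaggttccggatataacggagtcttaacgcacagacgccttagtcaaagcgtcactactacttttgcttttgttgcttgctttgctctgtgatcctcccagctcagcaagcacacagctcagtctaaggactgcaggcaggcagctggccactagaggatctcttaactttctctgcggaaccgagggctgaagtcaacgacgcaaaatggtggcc
The E-box of Acot4 began 66 bases before the start, and its DR1, with 2 mismatches, began 13 bases before the start with an exact TGACCT. Neither motif matched in the Acot1 and Acot2 stretches. Among the 32851 promoters of this length in the table, 7.15% held the E-box, 16.3% a half-site and 3.86% a DR1 at this tolerance. Promoter entries were matched for 9 of the 10 members (not Acot13), and those of Acot3, Acot7, Acot8 and Acot9 held neither motif. The Acot7 entry, chr4:152185358-152185657, lies inside the gene, whose locus starts at 152178100. It therefore does not cover the start of that locus. The Acot12 promoter held a DR1 with 1 mismatch, found in 0.554% of promoters at that tolerance, and 1 of the 2 Acot11 promoters held an E-box. A letter match is no binding site, and no match speaks only of these windows. The sequences are those of the C57BL/6J reference, not of KM mice.

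The libraries held an estimated 14.4 to 15.7 M assigned reads (all read numbers here are estimates from the authors' scaled count signal), and 12606 genes reached a mean of 1 FPKM (a fragment number scaled for transcript length and library size, so that levels of different genes can be compared), the minimum for testing. All 10 adipocyte markers (Adipoq, Lep and Plin1 among them) reached that minimum, with a summed level of 35010 to 41200 FPKM in control and 45150 to 64830 in RAS samples. Most of that sum was Fabp4, a fatty acid binding protein, at 20820 to 26450 FPKM in control and 30160 to 45590 in RAS samples. The RAS mean was the higher for 7 of the 10 markers, and Lep, which encodes leptin, was lower in every RAS sample (293 to 334 FPKM) than in any control sample (424 to 615). 3 libraries stood apart in markers of other cells: RAS 3 was highest for 8 of 11 brown or beige fat markers, control 1 for 9 of 10 skeletal muscle markers and control 3 for 9 of 10 liver markers. limma's moderated test on log2(FPKM + 1), with Benjamini-Hochberg adjustment, called no gene between the groups (0 of 12606, 0%, at an adjusted p under 0.05), with a smallest adjusted p of 0.138. Unadjusted, 1294 genes had a p under 0.05, of which 486 were higher and 808 lower in RAS samples, a split that became 650 and 660 after quantile normalization. Without control 1 the test called 2 genes, and without control 1 and RAS 3 it called 3.

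Of the 10 members, 7 reached the minimum, and the other 3 (Acot3, Acot11 and Acot12) are given by FPKM. Acot1 reached it only through the RAS samples, since its control mean was 0.884 FPKM. In 5 of the 7, Acot1, Acot2, Acot4, Acot7 and Acot13, every RAS sample lay above every control sample, an arrangement found in 5.42% of all genes tested. The family was selected on this contrast, so nothing is read from that count. No member lay wholly lower in RAS samples, an arrangement found in 1573 of the 12606 genes tested, and nothing is read from that either. In bulk tissue, fewer cells of a type and less RNA per cell cannot be told apart.

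**Figure D1:**
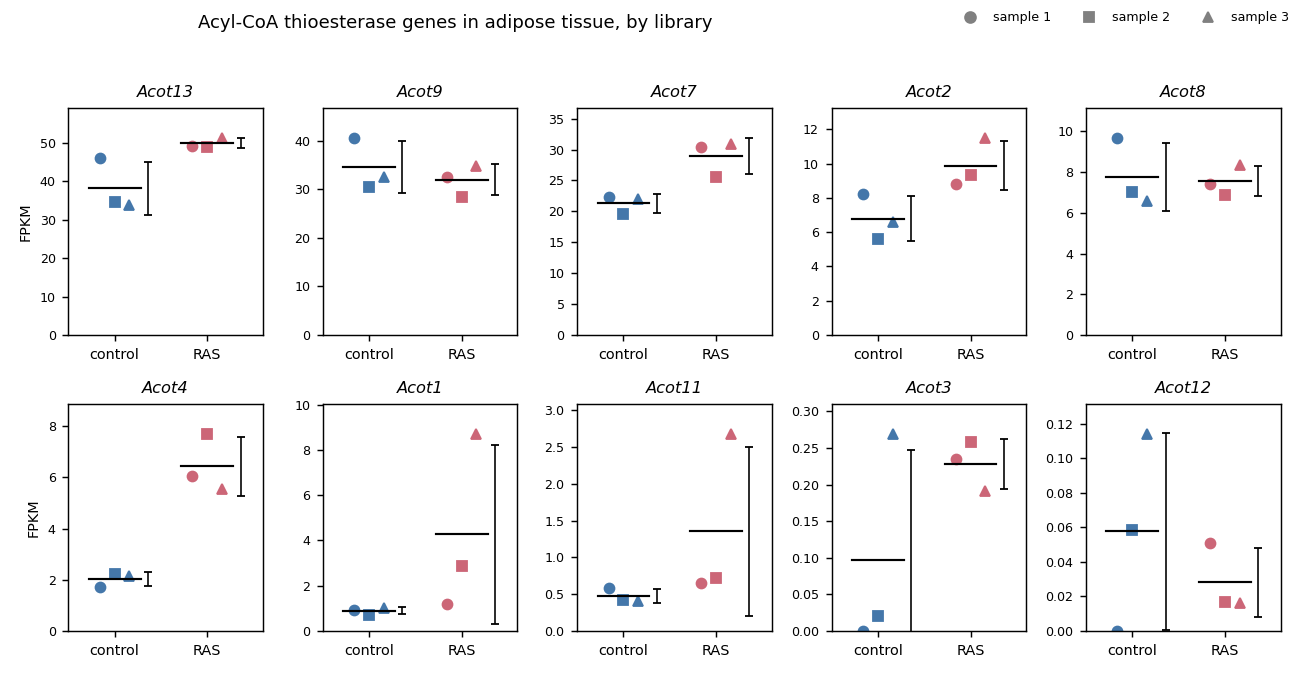
FPKM of the 10 members in each of the 3 control and 3 RAS samples, 1 panel per gene with its own vertical axis; points are samples, the black line is the group mean and the bar at its side is the mean with SD, cut off at 0 where it would run below. The groups are apart in Acot1, Acot2, Acot4, Acot7, Acot11 and Acot13, and 1 sample, RAS 3, carries the height of Acot1 and Acot11.

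Acot4, the peroxisomal succinyl-CoA thioesterase, and Acot1 had the larger differences among the 7 members above the minimum. Which of them led depended on the setting: the difference of Acot1 exceeded that of Acot4 with a pseudocount of 0.1 (1.73 against 1.61), on scaled counts (1.76 against 1.69), and without RAS 1, without RAS 2 or without control 1. The FPKM of Acot4 was 1.72, 2.23 and 2.13 in control samples 1 to 3 and 6.04, 7.72 and 5.53 in RAS samples 1 to 3. All 3 RAS samples were high, and the lowest of them was well above the highest control. The means were 2.03 ± 0.271 and 6.43 ± 1.14 FPKM (SD, n = 3 each), a 3.17-fold ratio, and the difference in log2(FPKM + 1) was 1.29 ± 0.15 (SE). These levels rested on 61 to 92 reads per control library and 199 to 272 per RAS library. The gene lies at chr12:84038379-84044723 (plus strand, coordinates as in the table, counted from 1), and 615 bases of its exons are also covered, on the opposite strand, by 4732463B04Rik in GENCODE M21. The labels name no strand-specific step, and that antisense gene was not analysed here.

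Acot1, the cytosolic long-chain enzyme at chr12:84009502-84017670, was uneven within the RAS group. Its FPKM was 0.938, 0.714 and 1.00 in control samples 1 to 3 and 1.18, 2.88 and 8.73 in RAS samples 1 to 3. RAS 3 stood far above the others, while RAS 1 was just above the highest control. The means were 0.884 ± 0.151 and 4.27 ± 3.96 FPKM (SD, n = 3 each), a 4.82-fold ratio, and the difference of 1.21 ± 0.48 on the log2(FPKM + 1) scale became 0.63 without RAS 3. The read numbers were 19, 16 and 20 in control and 22, 54 and 162 in RAS libraries.

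Acot2, the mitochondrial long-chain enzyme at chr12:83987861-83993877, was the most abundant gene of the cluster in all 6 samples. It measured 8.20, 5.57 and 6.61 FPKM in control samples 1 to 3 and 8.83, 9.32 and 11.5 in RAS samples 1 to 3. The groups did not overlap, but control 1 came close to RAS 1. The means were 6.79 ± 1.32 and 9.88 ± 1.43 FPKM (SD, n = 3 each), with a log2 difference of 0.49 ± 0.16.

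Acot3, a peroxisomal long-chain enzyme at chr12:84052151-84059565, was near the limit of detection. Its FPKM was 0, 0.02 and 0.270 in control samples 1 to 3 and 0.235, 0.258 and 0.191 in RAS samples 1 to 3, from at most 12 reads in a library. The groups overlapped, since control 3 was the highest of the 6. A further 2 genes of the cluster are no members. Acot5 was listed at 0 in all 3 control samples and at 0.223, 0.330 and 0.388 FPKM in the RAS samples, from 4 to 7 reads. Acot6 overlapped between groups, at 1.91, 1.76 and 1.18 FPKM in control and 1.6, 1.45 and 1.61 in RAS samples, with a log2 difference of -0.02.

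The 6 type I genes lie in the order Acot2, Acot1, Acot4, Acot3, Acot5, Acot6 within 123.5 kb of chromosome 12, all on the plus strand. Acot1 and Acot2 are near copies, with 95.5% identity over their aligned coding bases (GENCODE M21), whereas Acot4 matched the other cluster members at 75.3 to 76.6%. Of the 50-base pieces of their transcripts, 18.4% in Acot1, 27.6% in Acot2 and 4.17% in Acot4 also occur elsewhere in the family. Reads from such pieces could have been assigned to either gene, so sums are given too. Acot1 and Acot2 together came to 6.29 to 9.14 FPKM in control and 10.0 to 20.2 in RAS samples, which do not overlap. Acot1 to Acot4 summed to 9.80 ± 1.17 FPKM in control and 20.8 ± 4.87 in RAS samples (SD, n = 3 each), a ratio of 2.12.

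Within the cluster the make-up differed as well. Acot2 held 59.1 ± 5.06% of the summed FPKM of the 6 cluster genes in control and 44.1 ± 4.06% in RAS samples (SD, n = 3 each). Acot4 held 18.1 ± 4.19% in control samples and 29.4 ± 8.41% in RAS samples, where RAS 3 was lowest at 19.8%. Acot1 held 7.74 ± 1.06% in control samples and 31.2% in RAS 3, against 6.54% in RAS 1. Acot6 held 14.2 ± 3.34% in control and 7.06 ± 1.57% in RAS samples. The cluster total was larger in RAS 3 than in the other RAS samples by its Acot1 and Acot2, not by its Acot4.

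**Figure D2:**
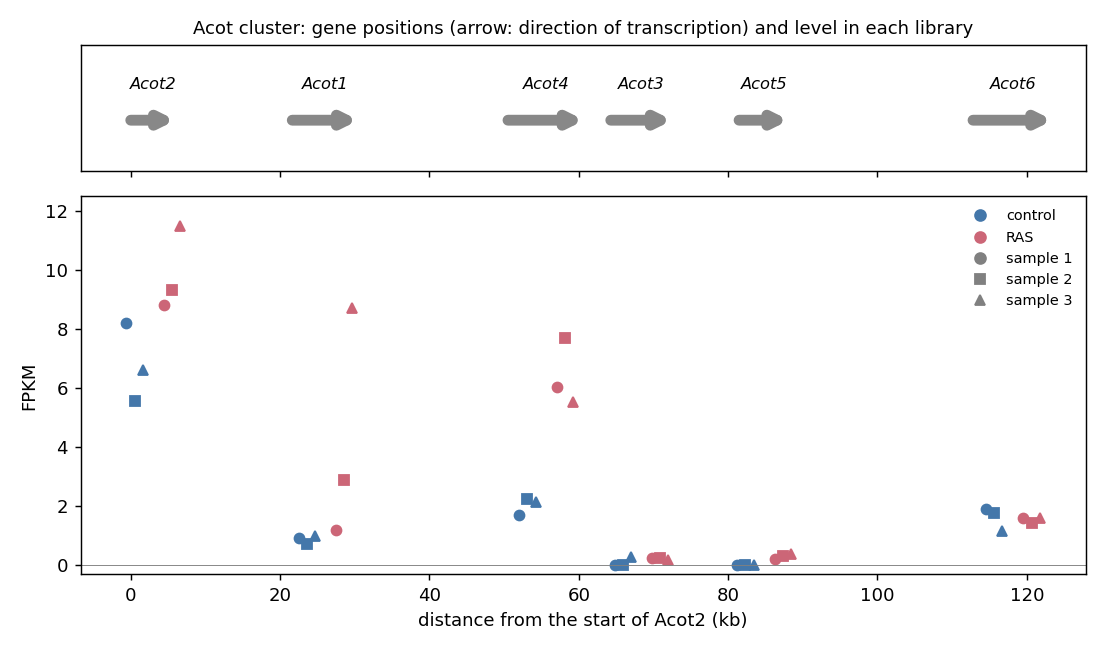
The 6 type I thioesterase genes drawn to scale by distance along the cluster, with arrows for gene extent and direction and, per gene, FPKM in the 3 control and 3 RAS samples. Acot4, in the middle, went from 1.72 to 2.23 FPKM in control to 5.53 to 7.72 in RAS samples, while Acot6 at the far end overlapped between groups.

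The type II members Acot13, Acot9 and Acot7 had the highest levels of the family. Acot13, a small enzyme (also called Them2) that acts on long-chain acyl-CoA at mitochondria, measured 46.2, 34.5 and 33.9 FPKM in control samples 1 to 3 and 49.2, 48.9 and 51.3 in RAS samples 1 to 3. The RAS samples were close to each other, and control 1 was near them. The means were 38.2 ± 6.92 and 49.8 ± 1.31 FPKM (SD, n = 3 each), with a log2 difference of 0.39 ± 0.15. Acot13 lies at chr13:24817955-24831489 and shared no 50-base piece with another gene.

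Acot7, the cytosolic brain acyl-CoA hydrolase at chr4:152178100-152271855, measured 22.3, 19.5 and 22.1 FPKM in control samples 1 to 3 and 30.3, 25.6 and 31.0 in RAS samples 1 to 3. Sample 2 was the lowest of either group, and the groups did not overlap. The means were 21.3 ± 1.57 and 29.0 ± 2.96 FPKM (SD, n = 3 each), with a log2 difference of 0.42 ± 0.12. Because Acot7 is abundant in neurons, 10 neuron markers were summed: they came to 15.6 to 20.2 FPKM in control and 18.3 to 21.6 in RAS samples, and 7 of the 10, Snap25 and Syt1 among them, were under 0.2 FPKM in every sample. Most of the sum was Syp and Stmn2. Syp overlapped between groups, at 11.48 to 15.47 FPKM in control and 12.65 to 16.03 in RAS samples. Stmn2, like Acot7, was higher in every RAS sample (4.83 to 5.77 FPKM) than in any control sample (3.79 to 4.07). The RAS mean was the higher for 6 of the 10 neuron markers. The part of neuronal RNA in the Acot7 difference was not tested.

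Acot9, a mitochondrial enzyme at chrX:155262500-155297507, overlapped between groups, with 34.5 ± 5.39 FPKM in control and 31.98 ± 3.23 in RAS samples (SD, n = 3 each). Control 1 was highest at 40.6 FPKM, and the log2 difference of -0.10 ± 0.15 turned to 0.02 without it and was -0.18 without control 2. Of its 50-base pieces, 15.2% also occur in Acot10, its close copy, which was not analysed here. Acot8, the peroxisomal enzyme of broad chain length at chr2:164786021-164804881, overlapped too, at 7.76 ± 1.69 and 7.56 ± 0.742 FPKM (SD, n = 3 each). Its log2 difference was -0.02 ± 0.15 and its sign changed with the samples left out, reaching 0.13 without control 1 and -0.12 without control 3. Acot8 shares exon bases with Snx21 on the opposite strand, and the loci of the 2 genes in the authors' table overlap. In GENCODE M21 the Acot8 gene spans 164792765-164804882.

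Acot11, a thioesterase with a lipid-binding START domain first cloned from brown fat, stayed under the minimum. Its locus in the authors' table is chr4:106733915-106799831, which overlaps that of Fam151a. In GENCODE M21 the Acot11 gene spans 106744555-106804998. Acot11 measured 0.585, 0.420 and 0.411 FPKM in control samples 1 to 3 and 0.657, 0.724 and 2.68 in RAS samples 1 to 3. The groups did not overlap, yet RAS 1 and RAS 2 were close to control 1, and RAS 3, with 257 reads, stood apart. The Acot11 exons overlap Fam151a on the opposite strand over 1263 bases, and Fam151a was at 0.0771 FPKM in RAS 3. Acot12, a cytosolic acetyl-CoA hydrolase abundant in liver, has a table locus on chromosome 13 that overlaps that of Ssbp2. Acot12 had at most 0.114 FPKM (7 reads), in control 3. That library was also the one with liver markers, which summed to 193 FPKM there and to 10.4 to 29.6 in the other control samples and 12.9 to 16.5 in RAS samples, and the part of liver RNA in the Acot12 value was not tested.

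RAS 3, the library with the highest Acot1 and Acot11, was also the one richest in brown or beige fat markers. Their summed level was 131 to 454 FPKM in control and 300.3 to 1083 in RAS samples, with 11 of 12 markers in the table. Ucp1, the uncoupling protein of brown fat, was at 33.8, 13.9 and 0.0343 FPKM in control samples 1 to 3 and 4.90, 4.48 and 163 in RAS samples 1 to 3. Elovl3, a fatty acid elongase of brown fat, was at 13.8 FPKM in RAS 3 and at most 0.617 in the other 5 samples. In control 1 the marker sum, 454 FPKM, exceeded the 300.3 of RAS 1 and the 359 of RAS 2, while Acot1 and Acot11 were lower in control 1 than in either. Single markers were divided. Cidea (42.4 FPKM in control 1, 46.8 in RAS 1 and 65.0 in RAS 2), Elovl3 (0.219, 0.617 and 0.526) and Slc36a2 (112, 140 and 133) were lower in control 1 than in either. The other markers found were higher in control 1 than in either. Cidea and Elovl3 were higher in every RAS sample than in any control sample. The part of brown fat RNA in the Acot1 and Acot11 values of RAS 3 was not tested. Acot4 in RAS 3 was the lowest of its group, and its log2 difference was 1.37 without that library.

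**Figure D3:**
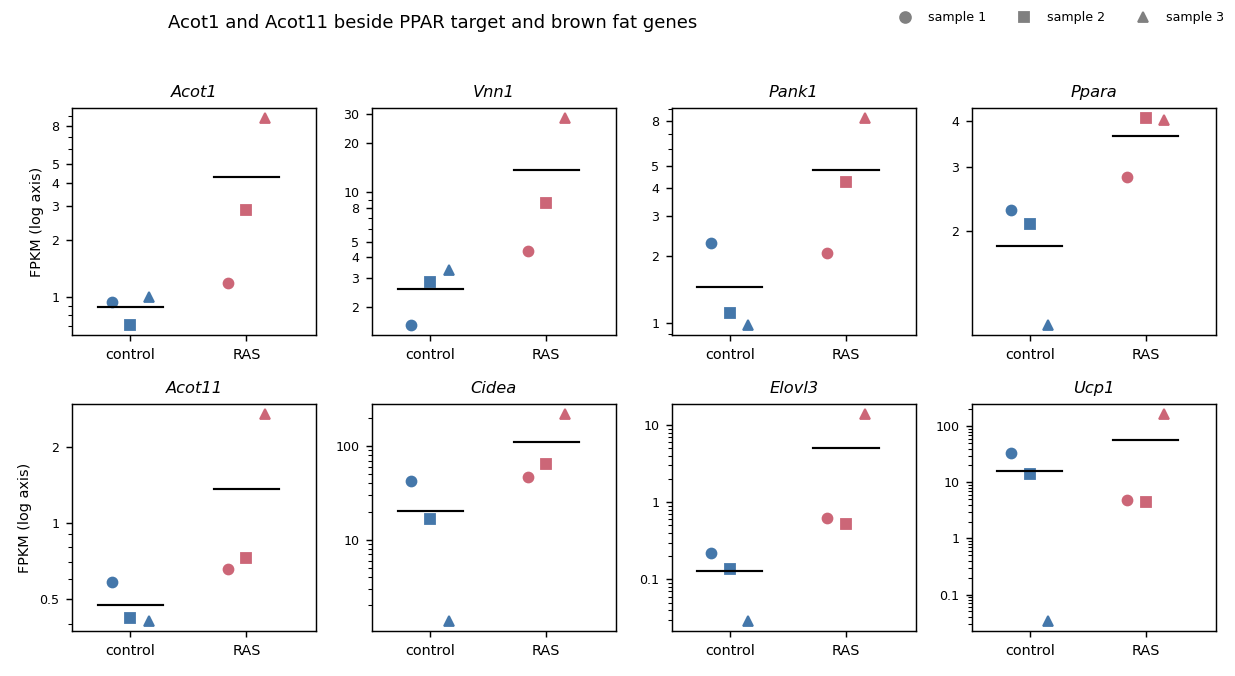
FPKM on log axes of Acot1 and Acot11 beside genes linked to PPAR alpha (Vnn1, Pank1, Ppara) and brown fat genes (Cidea, Elovl3, Ucp1) in the 6 samples; marker shape gives the sample number and lines are group means. RAS 3 (triangle on the right) is highest for Acot1 at 8.73, Acot11 at 2.68 and Ucp1 at 163 FPKM, but not for Ppara.

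By level, averaged as log2(FPKM + 1) over the 6 samples, the members ranked Acot13 (5.47), Acot9 (5.09), Acot7 (4.69), Acot2 (3.19), Acot8 (3.10), Acot4 (2.24), Acot1 (1.52), Acot11 (0.84), Acot3 (0.21) and Acot12 (0.06). The 3 leading genes are all type II enzymes, and the 2 next, Acot2 and Acot8, did not differ beyond their spread over the 6 samples (Acot2 higher in 4 of 6 samples, exact paired permutation test, two-sided, p = 0.469). That test pools both groups. Acot2 was above Acot8 in every RAS sample, below it in control 1 and control 2, and nearly level in control 3 (6.61 against 6.58 FPKM). Of the 9 neighbouring pairs, 5 kept their order in 6 of 6 samples: Acot13 over Acot9, Acot9 over Acot7, Acot7 over Acot2, Acot1 over Acot11, and Acot11 over Acot3. For these the exact permutation p was 0.03125, the smallest that 6 samples allow, and 0.05625 after Benjamini-Hochberg adjustment over the 9 pairs. No pair therefore passed the adjusted threshold. Acot8 was above Acot4 in 5 of 6 samples (exact permutation test, adjusted p = 0.0938), the exception being RAS 2, where Acot4 reached 7.72 FPKM against 6.89 for Acot8. Summed over all 10 members, the level was 112 ± 15.9 FPKM in control and 140.5 ± 12.2 in RAS samples (SD, n = 3 each), and the highest control, 130.3, almost met the lowest RAS sample, 130.8.

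Around the thioesterases, the fatty acid oxidation genes were mostly higher in RAS samples, although none of the genes below passed the limma test. For comparison, 43% of all 12606 genes tested were higher in RAS samples and their median log2 difference was -0.04. In mitochondrial fatty acid oxidation, 20 of 21 tested genes were higher and 1 lower, 0 passed the test in either direction, and the median was 0.31, which was 0.15 without RAS 3, 0.20 without control 2 or control 3, and 0.53 without control 1. Acad11, an acyl-CoA dehydrogenase, measured 61.6 ± 4.07 FPKM in control and 104.5 ± 8.5 in RAS samples (SD, n = 3 each), with a log2 difference of 0.75 ± 0.13 and an adjusted p of 0.232 by limma. Slc25a20, the carnitine-acylcarnitine carrier, had 29.1 ± 5.77 and 50.3 ± 13.9 FPKM. Hadha, of the trifunctional protein, and Decr1, which handles unsaturated chains, had log2 differences of 0.50 and 0.36. That of Hadha ranged from 0.32 without control 3 to 0.79 without control 1, and that of Decr1 from 0.24 without RAS 3 to 0.53 without control 1.

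In peroxisomal oxidation, 18 of 22 tested genes were higher and 4 lower, 0 passed the test, and the median was 0.21, between 0.13 without control 3 and 0.30 without control 1. Pex19, a chaperone of peroxisomal membrane proteins, measured 60.1 ± 4.54 FPKM in control and 74.4 ± 4.94 in RAS samples (SD, n = 3 each), with an adjusted limma p of 0.463. Acox3 had a log2 difference of 0.29. Decr2 had 0.33, or 0.19 without control 2 and 0.49 without control 3. Ehhadh, the bifunctional enzyme, had 0.61, and 0.39 both without RAS 3 and without control 3, but 0.89 without control 1.

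PPAR alpha and its known targets gave 11 higher and 4 lower genes of 15 tested, 0 past the test, and a median of 0.50. That median was 0.31 without RAS 3, 0.32 without control 1 and 0.59 without RAS 1. With no minimum level it was 0.24, and after quantile normalization 0.29. Ppara itself was at 2.28, 2.09 and 1.11 FPKM in control samples 1 to 3 and 2.80, 4.06 and 4.03 in RAS samples 1 to 3. The groups did not overlap, and the log2 difference was 0.73 ± 0.21, with an adjusted limma p of 0.347. Vnn1, which releases pantothenate for CoA recycling, followed the Acot1 order of samples within the RAS group: 1.56, 2.85 and 3.35 FPKM in control and 4.40, 8.60 and 28 in RAS samples. Its log2 difference of 1.71 was 1.04 without RAS 3, 0.82 without both control 1 and RAS 3, and 2.25 without RAS 1. Plin5, a lipid droplet protein, had 0.76, or 0.41 without RAS 3, 0.49 without control 3 and 1.08 without control 1. Among the 4 lower genes, Fabp1, a liver fatty acid binding protein singled out after its value was seen, had -1.75, and it was below the minimum without control 3, the library with liver markers.

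The acyl-CoA synthetases, which make the substrates that thioesterases cleave, gave 14 higher and 3 lower genes of 17 tested, 0 past the test, with a median of 0.15. It was 0.06 without control 3, 0.07 without control 2 or with no minimum level, 0.25 without RAS 1 and 0.29 without control 1. Slc27a1, a fatty acid transporter with synthetase activity, was at 107.6, 151.8 and 107.4 FPKM in control samples 1 to 3 and 266.9, 358 and 316 in RAS samples 1 to 3, with no overlap. Its log2 difference was 1.36 ± 0.20, with an adjusted limma p of 0.174. Acsm5, a mitochondrial medium-chain synthetase, measured 4.32 ± 0.856 and 9.26 ± 0.156 FPKM (SD, n = 3 each). Acsl1, the main long-chain synthetase of fat, had 439 ± 82.6 and 741.5 ± 214 FPKM. Acsm3 had a log2 difference of 0.74, or 0.52 without RAS 2 and 0.97 without RAS 1.

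The genes of CoA synthesis and turnover gave 9 higher and 5 lower of 14 tested, 0 past the test, with a median of 0.13. It was 0.03 without RAS 1, 0.06 without control 2, 0.20 without RAS 3, 0.22 without RAS 2, 0.23 without control 1 and 0.38 without both control 1 and RAS 3. Pank1, a pantothenate kinase at the entry to CoA synthesis, was at 2.28, 1.11 and 0.988 FPKM in control samples 1 to 3 and 2.05, 4.25 and 8.18 in RAS samples 1 to 3. RAS 1 lay under control 1, and the log2 difference of 1.14 was 0.74 without RAS 3 and 1.53 without RAS 1. Vnn3 had 0.75, or 0.39 without RAS 3 and 1.22 without RAS 1. Nudt7, which degrades peroxisomal CoA, had 0.46, or 0.29 without control 3 and 0.75 without control 1. Acyl-CoA binding proteins gave 5 higher and 1 lower of 6 tested, 0 past the test, with a median of 0.20 that was 0.08 without control 2, 0.36 without control 1 and 0.11 after quantile normalization. Dbi, the main acyl-CoA binding protein, had 0.30, or 0.18 without control 2 and 0.45 without RAS 2. Acbd3 had -0.22, or -0.12 without control 1. Acbd6 had 0.30, or 0.15 without control 2 and 0.19 without RAS 3. Scp2 had 0.24, or 0.12 without control 2 and 0.39 without control 1.

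The other thioesterases gave 2 higher and 4 lower of 6 tested, 0 past the test, with a median of -0.03 whose sign was not stable: it was 0.11 without control 1, 0.05 without RAS 2, 0.03 without control 2, 0.02 after quantile normalization and -0.08 without control 3. Hibch, a hydrolase of valine breakdown, measured 91.1 ± 21.8 FPKM in control and 121.7 ± 16.8 in RAS samples (SD, n = 3 each), with an adjusted limma p of 0.505. Ppt1 and Ppt2, lysosomal thioesterases, had log2 differences of 0.10 and -0.08, and Them6 (4930572J05Rik in the table) had -0.09. Ppt1 ranged from 0.06 without control 3 to 0.16 without control 1. Ppt2 ranged from -0.26 without control 2 to 0.11 without control 1. 4930572J05Rik ranged from -0.40 without control 3 to 0.10 without control 1, and was also positive, at 0.03, without control 2.

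**Figure D4:**
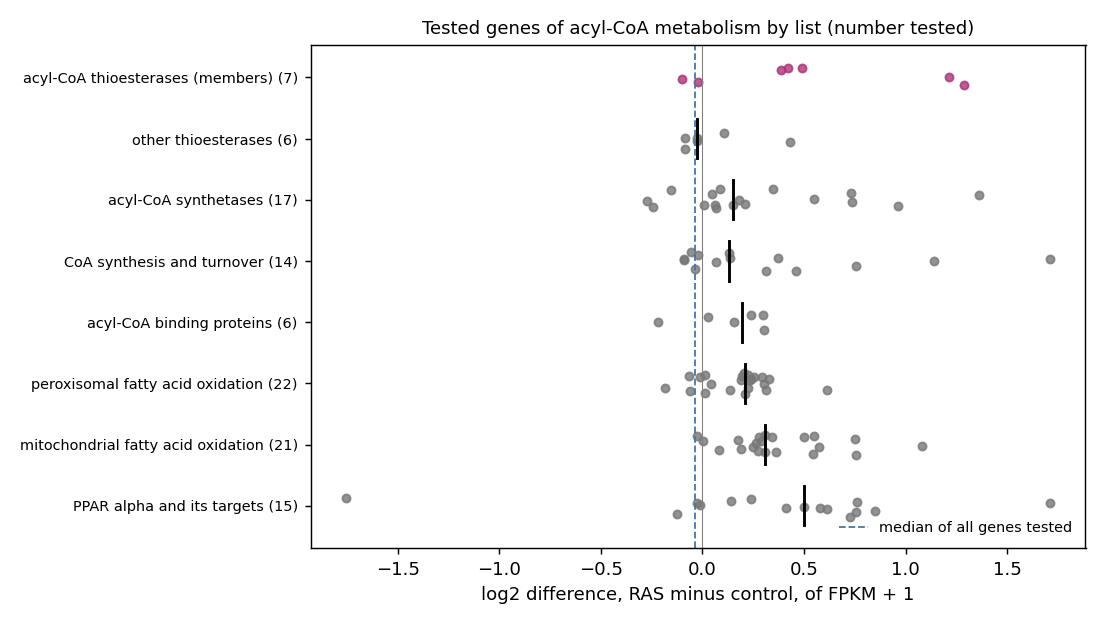
Log2(FPKM + 1) differences, RAS minus control, of the tested members and of the tested genes of 7 related lists, 1 point per gene (vertical scatter has no meaning); short black lines are list medians and the dashed line is the median of all genes tested. Points of mitochondrial oxidation lie right of 0 for 20 of 21 genes, while Acot4 and Acot1 lie farther right than the other 5 tested thioesterase members.

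Likeness between genes was measured as the root mean square difference of their log2(FPKM + 1) values, each centred on its own mean, over the 6 samples. Nearest to Acot4 were Slc27a1 (0.17), Fbxo21 (0.18), Acsm5 (0.21), Niacr1 (0.23) and Metap1d (0.25). Slc27a1, Fbxo21 and Acsm5 had their highest control value in control 2, as Acot4 did. Fbxo21, of the F-box family, was at 11.7 ± 2.59 FPKM in control and 30.9 ± 2.56 in RAS samples (SD, n = 3 each), and Niacr1, a niacin receptor of adipocytes, at 10.7 ± 1.07 and 21.1 ± 2.35. Nearest to Acot1 were LOC100861618 (0.27), Pank1 (0.29) and S100a9 (0.32), the first on at most 12 reads and S100a9 on at most 30 reads in a library. Nearest to Acot2 were Mttp (0.05), 5033411D12Rik (0.06) and 1810049H13Rik (0.06). Among the members themselves the closest pair was Acot8 with Acot9 (0.08), followed by Acot2 with Acot13 (0.12). Between the neighbours the difference was 0.65 for Acot1 with Acot2, 0.70 for Acot1 with Acot4 and 0.50 for Acot2 with Acot4. Closer genes elsewhere were near certain to be found among the 12606 tested, so nothing about the cluster is read from them. The measure also includes the difference between groups on which the family was selected, and genes that vary little lie close to each other by design.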

How the data were processed

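RNA-seq of adipose tissue was measured in 6 samples, 3 control and 3 RAS. The authors' deposited FPKM values were used unchanged. The submitters' processing notes name TopHat2 2.0.9 and Cufflinks 2.1.1. The genome build, the annotation and any filters were not given in the sources used here. A scaled count signal also stands in the authors' deposited table, and read numbers are that signal divided by the value of 1 read per sample (0.911 to 1.06), an estimate, since not all values came out as whole reads. No count model was run. RAS columns were matched through the group name in the labels' protocols, control columns by elimination, and 4 columns of group values were not used.

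Genes whose mean FPKM was 1 or more were tested with limma 3.58.1 (R 4.3.3, lmFit and eBayes with a trend) on log2(FPKM + 1), two-sided, with Benjamini-Hochberg adjustment over 12606 genes and a threshold of 0.05. The pseudocount of 1 understates differences of low genes. Neighbouring levels were compared by exact sign flips. The scripts were tested on simulated data. Named genes are the members, up to 4 genes of smallest p per list, the 5 nearest genes to Acot4 and the 3 nearest to Acot1 and to Acot2. Marker genes and clock genes are named for context. Members and lists were chosen with earlier results of these data known. Table starts were shifted by 1 base to count from 1, and 99.67% of 18403 loci overlapped the GENCODE M21 gene of the same identifier (GRCm38). Alternatives were other pseudocounts, minimums, scalings, a replicate block and left-out samples.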

Additional observations from a re-analysis of the deposited data

How the results depend on the processing

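The number of genes called was 0 with a pseudocount of 0.1, with no minimum, with a minimum of 5 FPKM, after quantile normalization, with median-ratio size factors and with the scaled counts in place of FPKM. With single samples left out it ranged from 0 to 2, with 2 without control 1, 1 without RAS 1 and 1 without RAS 2, and it was 3 without control 1 and RAS 3 together. Scaled counts and the joint omission were chosen after seeing the data, and the cause of the extra calls was not tested. With the replicate block, 0 genes were called and 1663 had an unadjusted p under 0.05, against 1294 without it. Samples of the same number deviated together with correlations of 0.178, 0.096 and 0.219, so the numbers were not taken as pairs, although every sample correlated best with its own number. Of 96 member values under the 14 alternatives, 94 lay within 1 SD (pooled within groups) of the reported one. The others were Acot4, with 1.61 at a pseudocount of 0.1 and 1.69 on scaled counts. No stability is read from that count. Leaving out 1 of 3 samples cannot move a value by 1 such SD, and the minimums and the replicate block leave it unchanged by design. Acot1, for example, went from 1.21 to 0.63 without RAS 3 and was still counted as within 1 SD. The sign changed under 5 alternatives for Acot8, 1 for Acot9 and 0 for the other tested members. With 5 samples the smallest exact p for the order of levels is 0.0625, so that test could not be repeated with a sample left out. Depth limits Acot3, Acot5 and Acot12, which rested on at most 12 reads in a library.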
